A study of Arabidopsis thaliana with 12 samples.

Results

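The genes described here encode 3 light-activated enzymes of plastid carbon metabolism and 2 of the reductases that activate such enzymes. The enzymes are PRK (AT1G32060, phosphoribulokinase), SBPASE (AT3G55800, sedoheptulose bisphosphatase) and the NADP-dependent malate dehydrogenase NADP-MDH (AT5G58330). The reductases are FTRB (AT2G04700, the catalytic subunit of ferredoxin-thioredoxin reductase) and NTRC (AT2G41680, NADPH-dependent thioredoxin reductase C). The 5 genes were chosen by locus, through probes whose platform annotation names exactly 1 gene. Such probes number 692 of the 3439 in the table, and 690 of them were matched to 689 loci. Each of the 5 genes had 1 such probe, whose values stand for the gene throughout. Bromoxynil plants received 500 µM of this nitrile herbicide, which blocks electron transport through photosystem II, and control plants received water. All were wild-type Arabidopsis thaliana of the Landsberg ecotype, taken after 12 h of darkness followed by 30 min of light. Each group had 6 arrays of total RNA. The labels name neither the tissue nor the plants behind an array, so p-values measure the spread between arrays, which may be technical.

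In chloroplasts, light drives electrons through the photosystems to ferredoxin, and ferredoxin-thioredoxin reductase passes them on to thioredoxins. Thioredoxins then reduce disulfides in target enzymes, which turns the Calvin cycle on in the light. NTRC joins a thioredoxin reductase and a thioredoxin in 1 protein and draws on NADPH instead of ferredoxin, so that it also works in the dark. Thioredoxin acts on the proteins, whereas the arrays measured transcripts.

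Intensities were deposited relative to the brightest feature of each array, which was the same feature on all 12 arrays. That feature had a value of 100, so the values read as percent of it. The median intensity of an array lay between 0.624 and 0.654 with bromoxynil and between 0.443 and 0.491 with water. Between 3.14% and 4.57% of an array's values were 0, but 0 of the 60 values of the 5 genes were. All 5 probes lay above the dimmest 25% of probes. By mean log2 value, FTRB stood at percentile 34.4, PRK at 51.9, SBPASE at 59.5, NTRC at 65.0 and NADP-MDH at 92.5. Of 12 green tissue markers, 4 were measured by a probe with 1 gene (LHB1B2, PSAN, PSBW and PSBY), and 0 of these values were 0. Values were compared as log2 intensities after quantile normalisation, and a change is bromoxynil over water on that scale unless another is named.

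The first comparison asked how each transcript differed between bromoxynil and water. PRK and FTRB transcripts were about 3 times lower with bromoxynil, NADP-MDH transcripts were about 3 times higher, NTRC transcripts were slightly lower on this scale and SBPASE did not pass the test. With p-values from limma adjusted over all probes and a threshold of 0.05, 3 of the 5 genes were lower and 1 was higher. Over all probes, 54.4% passed this test, with 29.9% lower and 24.5% higher, and 51.4% of the probes with 1 matched gene passed, so that a call was common in this table. The groups did not overlap for 3 of the 5 genes, PRK, NADP-MDH and FTRB, against 36.5% of all probes. The median change was -0.46 over the 5 genes, which is that of NTRC, and -0.04 over all probes. It was -0.015 over the 5 genes and 0.28 over all probes on the values as deposited. In RNA of whole samples, fewer cells of a type and less of a transcript per cell cannot be told apart. Beside the falls of PRK and FTRB, the green tissue markers LHB1B2 and PSBY had changes of -0.88 ± 0.12 and -0.85 ± 0.12, PSBW one of 0.67 ± 0.11 and PSAN one of -0.12 ± 0.23 (SE). After the adjustment for probe position described below, LHB1B2 had -0.49 ± 0.19 and PSBY -0.34 ± 0.16 (SE). Neither then passed (limma adjusted p = 0.0507 and 0.0928), while PSBW had 1.07 ± 0.10 and PSAN 0.14 ± 0.18 (SE). LHB1B2 had deposited intensities of 6.94 to 8.67 with bromoxynil, against 15.4 to 23.3 with water. The part of green tissue in the results was not tested.

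PRK makes ribulose bisphosphate, the acceptor of carbon dioxide in the Calvin cycle. Its deposited intensity was 0.321 at the lowest, 0.345 at the median and 0.492 at the highest with bromoxynil, against 0.644, 0.756 and 1.40 with water. All 6 bromoxynil arrays lay below all 6 water arrays. The log2 values averaged -1.66 ± 0.22 with bromoxynil and -0.04 ± 0.43 with water (SD, n = 6 each). PRK fell 3.08-fold, with a log2 change of -1.62 ± 0.19 (SE) and an adjusted p of 2.72e-05 (limma). Of all probes, 108 had a change this low or lower, PRK included.

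SBPASE removes a phosphate from sedoheptulose bisphosphate in the regenerative part of the same cycle. Its deposited intensity ran from 0.627 over a median of 0.776 to 0.911 with bromoxynil, against 0.415, 0.510 and 0.668 with water. On the quantile-normalised scale the values ran from -0.86 over a median of -0.57 to -0.35 with bromoxynil, and from -1.03 over -0.76 to -0.32 with water. There the groups overlapped, and the bromoxynil array was the higher in 4 of 6 same-number pairs. The log2 change was 0.15 ± 0.13 (SE), with an adjusted p of 0.374 (limma). SBPASE passed the test at 0.58 on the values as deposited, where array medians relative to the brightest feature were higher with bromoxynil. It also passed at 0.50 after a place adjustment, which removes from each array the local median of probes at like positions.

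NADP-MDH reduces oxaloacetate to malate with NADPH and so carries reducing power out of the chloroplast through the malate valve. Its deposited intensity was 2.22 at the lowest, 2.41 at the median and 2.93 at the highest with bromoxynil, against 0.368, 1.01 and 1.26 with water. All 6 bromoxynil arrays lay above all 6 water arrays. The log2 values averaged 1.36 ± 0.18 with bromoxynil and -0.17 ± 0.72 with water (SD, n = 6 each), so the water arrays spread more widely. NADP-MDH rose 2.89-fold, by 1.53 ± 0.29 (SE) on the log2 scale, with an adjusted p of 0.000784 (limma). The 198 highest changes of the table include it. Water arrays 1 and 2 were the low ones, at -0.94 and -1.20, while the other 4 lay between 0.09 and 0.42. The change was 2.33 between arrays 1 and 2 of both groups, 1.099 between arrays 3 and 4, and 1.16 between arrays 5 and 6.

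**Figure D1:**
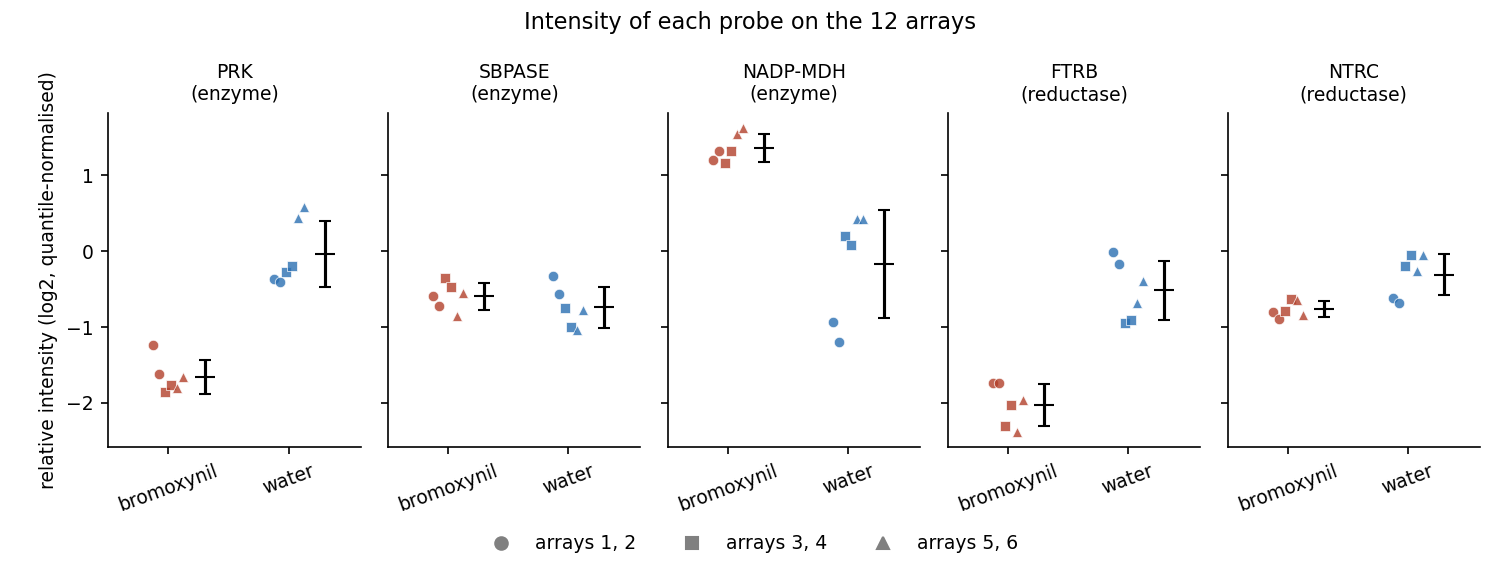
Quantile-normalised log2 intensity of each gene's probe on the 6 bromoxynil arrays (red) and the 6 water arrays (blue), with symbols for array numbers and black bars for the mean ± SD. PRK and FTRB are lower on every bromoxynil array than on any water array and NADP-MDH is higher, while SBPASE and NTRC overlap; heights of different probes are not comparable.

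Of the reductases, FTRB carries the iron-sulfur centre and the active disulfide through which electrons from ferredoxin reach thioredoxin. Its deposited intensity was 0.215 at the lowest, 0.277 at the median and 0.341 at the highest with bromoxynil, against 0.467, 0.593 and 0.851 with water. Every bromoxynil array lay below every water array. The log2 values averaged -2.03 ± 0.27 with bromoxynil and -0.52 ± 0.39 with water (SD, n = 6 each). FTRB fell 2.85-fold, with a log2 change of -1.51 ± 0.19 (SE) and an adjusted p of 3.94e-05 (limma). By array numbers the change was -1.65 for arrays 1 and 2, -1.24 for arrays 3 and 4 and -1.63 for arrays 5 and 6. After the place adjustment it was -0.96, with an adjusted p of 0.000545 (limma).

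NTRC, the other reductase, also keeps plastid peroxiredoxins reduced. Its deposited intensities overlapped widely, at 0.635, 0.689 and 0.758 (lowest, median and highest) with bromoxynil, against 0.521, 0.752 and 0.859 with water. On the quantile-normalised scale it ran from -0.90 over -0.79 to -0.64 with bromoxynil, and from -0.68 over -0.23 to -0.05 with water. There 4 of the 6 bromoxynil arrays lay below all water arrays, and the groups overlapped through the other 2. NTRC fell by 0.46 ± 0.12 (SE) on the log2 scale (limma adjusted p = 0.00711), whereas its change was -0.02 ± 0.14 on the values as deposited and 0.03 ± 0.16 after the place adjustment, neither past the threshold. With consecutive arrays averaged it did not pass either, with an adjusted p of 0.0991 (limma).

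The next comparison set the enzymes against their reductases. For each enzyme and reductase, the difference between their log2 values on the same array was taken, in which any factor common to an array cancels. Its level has no meaning for unlike probes, but its shift between bromoxynil and water is the difference between the changes of both genes. All 10 pairs among the 5 genes were tested with exact two-sided permutation tests over the 924 assignments of arrays, for which the smallest possible p is 0.00216, and p-values were adjusted over the 10 pairs. These tests take the 6 arrays of a group as independent. Over probes above the dimmest 25%, arrays 1 and 2, 3 and 4, and 5 and 6 of a group deviated together from the group mean (Pearson correlations of 0.32 to 0.59), while over all probes these correlations ran from -0.05 to 0.39. If each such pair is 1 measurement, the p-values are too small and the intervals too narrow. With the pairs averaged, the SE of NADP-MDH minus FTRB was 0.70 instead of 0.45, and 3 values per group allow no permutation p under 0.05. Of the 6 pairs of an enzyme and a reductase, 5 passed an adjusted p of 0.05, and in 4 of these the enzyme changed upward against the reductase. The share of pairs that would pass among all probes was not computed, so these counts have no background.

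NADP-MDH moved away from both reductases. Its difference to FTRB was 3.39 ± 0.36 with bromoxynil and 0.35 ± 1.04 with water (SD, n = 6 each), a shift of 3.04 ± 0.45 (SE) with an exact permutation adjusted p of 0.00309. This shift corresponds to an 8.23-fold change of the ratio, with a 95% interval of 4.41 to 16.9 from the permutation test. With water the difference ran from -1.03 over a median of 0.90 to 1.16, and water arrays 1 and 2 were the low ones. The size of the shift thus rests in part on these 2 arrays, and no alternative left out both. After the place adjustment the shift was 2.44 ± 0.36 (SE), or 5.42-fold. The difference to NTRC shifted by 1.99 ± 0.21 (SE), or 3.97-fold, with the same exact permutation adjusted p of 0.00309. In both cases the groups did not overlap, and water arrays 1 and 2 gave the lowest differences.

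SBPASE, whose own change missed the threshold, differed from FTRB beyond the spread of the arrays. The difference ran from 1.01 over 1.46 to 1.96 with bromoxynil and from -0.39 over -0.33 to 0.20 with water, without overlap. It shifted by 1.66 ± 0.17 (SE), or 3.16-fold, with an exact permutation adjusted p of 0.00309. Against NTRC the shift was 0.61 ± 0.23 (SE), with an exact permutation adjusted p of 0.0337. That call did not hold with the array number as a block (exact sign-flip adjusted p = 0.104), after the place adjustment (exact permutation adjusted p = 0.0553) or in 8 of 12 comparisons that left out 1 array.

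PRK took the other course. Its difference to NTRC was -0.89 ± 0.28 with bromoxynil and 0.27 ± 0.35 with water (SD, n = 6 each), a shift of -1.16 ± 0.18 (SE) with an exact permutation adjusted p of 0.00309. Against FTRB it shifted by only -0.11 ± 0.26 (SE), with an exact permutation adjusted p of 0.671. The 95% interval of that shift runs from -0.65 to 0.50 on the log2 scale, so a difference of up to 1.41-fold in favour of PRK, or a ratio as low as 0.637, is within it.

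**Figure D2:**
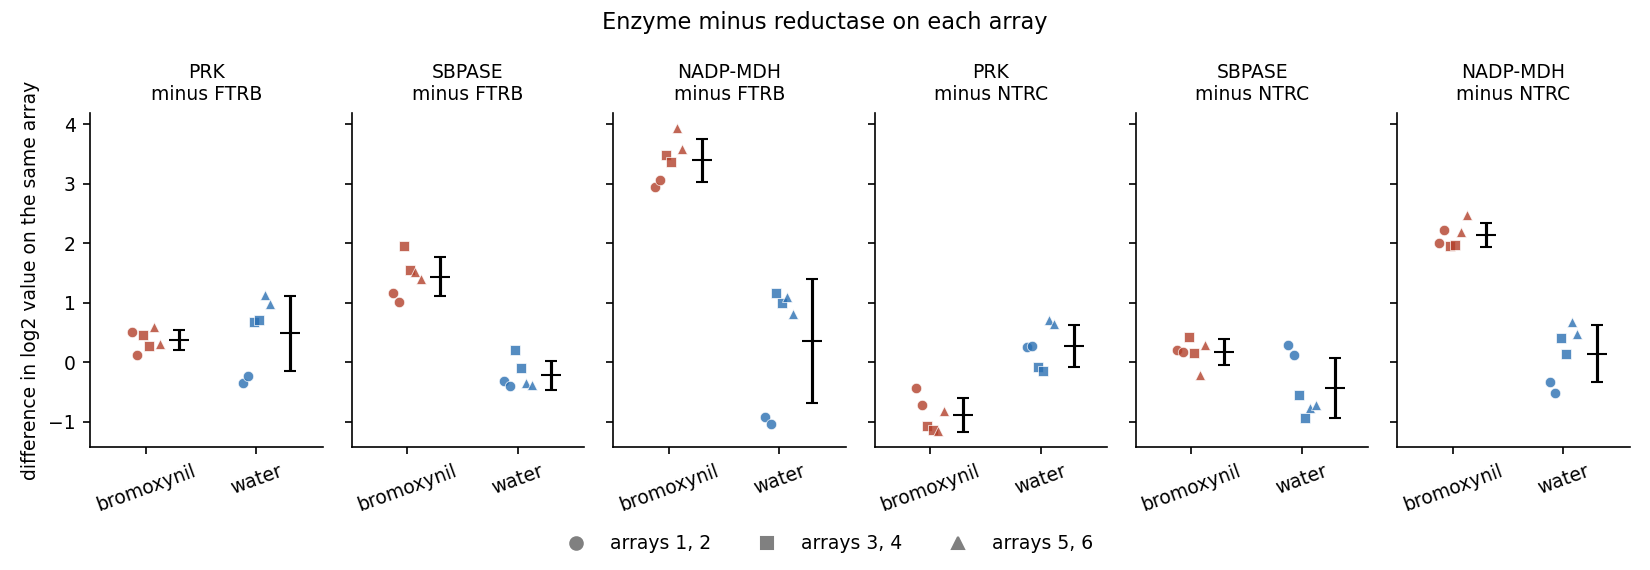
Difference in log2 value between an enzyme and a reductase on each bromoxynil array (red) and water array (blue), with symbols for array numbers and black bars for the mean ± SD. NADP-MDH minus either reductase and SBPASE minus FTRB lie higher on all bromoxynil arrays, PRK minus NTRC lies lower, and PRK minus FTRB overlaps; only the shift between groups is comparable between panels.

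The enzymes also differed among themselves. PRK minus NADP-MDH shifted by -3.15 ± 0.24 (SE), the widest of the 10 pairs, and PRK minus SBPASE by -1.77 ± 0.28 (SE). SBPASE minus NADP-MDH shifted by -1.38 ± 0.41 (SE). The exact permutation adjusted p was 0.00309 for each of these 3 pairs. Water arrays 1 and 2 gave the highest water values in both pairs with NADP-MDH. SBPASE minus NADP-MDH ran from -1.46 over a median of -1.02 to 0.64 with water. With medians centred it shifted by -1.08 and the groups overlapped (exact permutation adjusted p = 0.0189). After the place adjustment it shifted by -0.97 (exact permutation adjusted p = 0.0108). Between the reductases, FTRB minus NTRC shifted by -1.05 ± 0.29 (SE), with an exact permutation adjusted p of 0.00541. Thus 9 of the 10 pairs passed, among them all 4 pairs within the enzymes or within the reductases. The 10 shifts share 5 probes, so they are not separate results, and the share over pairs of all probes is not known. The 5 genes were chosen with earlier results of these data known, so these p-values describe the arrays and are no independent test of a rule.

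The position of a probe, as its number gives it, moved with the changes. The changes of all probes followed the probe number with a repeat of 288 numbers, and the median change over bins of 12 places ran from -0.68 to 0.65. The probes of PRK and FTRB lie 3 places apart in this repeat, in a stretch where the median change of the probes within 6 places was -0.53 for both. PRK lay 1.09 below that median and FTRB 0.98 below it on the log2 scale. The neighbours of NTRC had a median change of -0.66, below that of NTRC itself, and those of SBPASE a median of -0.40. NADP-MDH stood among neighbours with a median change of 0.10, and lay 1.43 above it. These neighbours are probes at like places over all repeats. The 7 to 9 probes within 6 numbers had median changes of -0.22 for PRK, -0.58 for FTRB and 0.28 for NADP-MDH. For SBPASE that median was -0.06, and for NTRC -0.25, above the change of NTRC itself. After each array was adjusted for place, the changes were -1.16 ± 0.19 for PRK, 0.50 ± 0.11 for SBPASE, 1.48 ± 0.22 for NADP-MDH, -0.96 ± 0.17 for FTRB and 0.03 ± 0.16 for NTRC (SE, n = 6 per group). PRK minus FTRB then shifted by -0.20 ± 0.28 (SE), with an exact permutation adjusted p of 0.485. Whether the place holds the rest of any change was not tested.

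**Figure D3:**
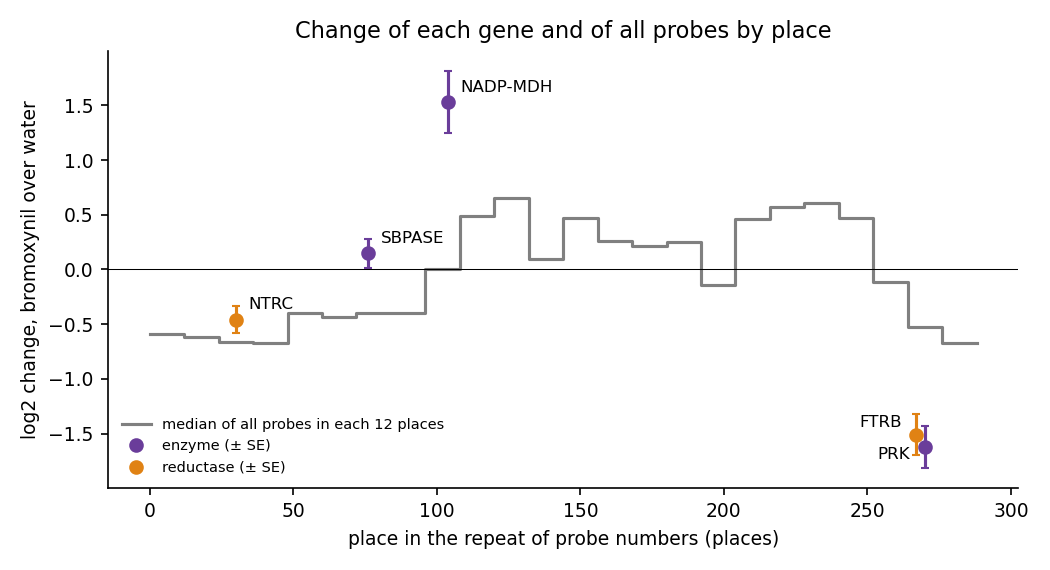
Log2 change of the 5 probes (± SE) against their place in the repeat of probe numbers, with enzymes in purple, reductases in orange and the median change of all probes in each 12 places as a grey line. PRK and FTRB lie 3 places apart and both below the line, NTRC and SBPASE lie above it where it is negative, and NADP-MDH lies above it where it is near 0.

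Scaling had its own effect. On the values as deposited the median change of all probes was 0.28, and after median centring of the arrays it was -0.19. Under both scalings PRK, NADP-MDH and FTRB kept their direction and their call, each tested against no change and not against those medians. PRK had a change of -1.26 as deposited and -1.72 with medians centred, and FTRB one of -1.15 and -1.61. NADP-MDH had a change of 1.66 as deposited and 1.20 with medians centred. The share of calls that were higher also moved, with 844 of 1872 probes higher after quantile normalisation and 1301 of 1941 on the deposited values.

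**Figure D4:**
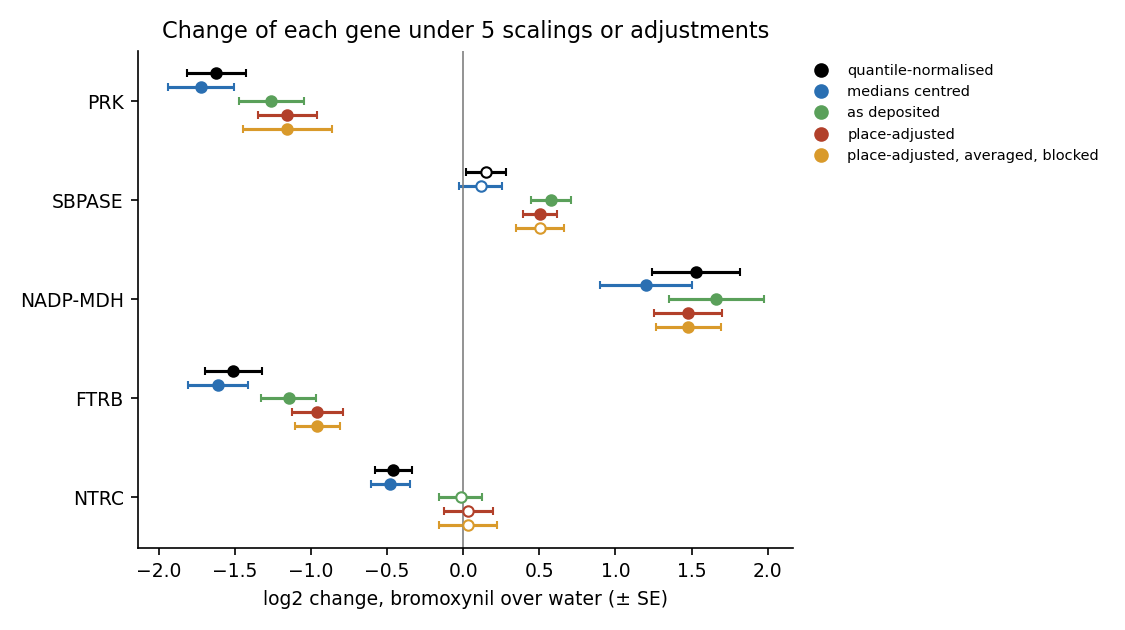
Log2 change of each gene with bromoxynil over water (± SE) under 5 scalings or adjustments, with filled circles for an adjusted p under 0.05 (limma) and open circles otherwise. PRK and FTRB stay below 0 and NADP-MDH above 0 in each, whereas SBPASE passes on deposited and on place-adjusted values only and NTRC passes on quantile-normalised and median-centred values only.

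Array numbers also moved with the values within a group. Deviations from the group means, over 12 arrays that share numbers and place effects, had Pearson correlations between -0.72 (SBPASE with NADP-MDH) and 0.84 (NADP-MDH with NTRC) among the 5 genes. For PRK with FTRB, whose changes were closest, it was 0.09. Between bromoxynil and water arrays of the same number, the deviations had Pearson correlations over 6 numbers of 0.82 for FTRB, 0.53 for NADP-MDH, 0.53 for NTRC, 0.10 for SBPASE and -0.32 for PRK. The PRK change differed with the number, at -1.05 for arrays 1 and 2, -1.58 for arrays 3 and 4 and -2.24 for arrays 5 and 6. Water arrays 5 and 6, at 0.44 and 0.58, were the highest for PRK, against -0.40 to -0.19 on the other 4. For SBPASE the change was -0.21, 0.46 and 0.20 over the same pairs of numbers, so its direction was not the same in all. For NTRC it was -0.21, -0.58 and -0.59.

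Among the other 497 probes with 1 matched gene above the dimmest 25%, those whose values ran most like each gene's over the 12 arrays were ranked by Pearson correlation, as a description. GH9B16 (AT4G38990), a glycosyl hydrolase of family 9, was the most like PRK, at 0.97, and 0.70 after group means were removed. Its probe lies 3 places from that of PRK, and its own change was -0.88 ± 0.09 (SE). AT2G46910 followed at 0.95. AT5G48440 was the most like FTRB, at 0.98, with 0.92 after group means were removed and a change of -1.25 ± 0.18 (SE), and AT2G37510 followed at 0.98. AT1G35510 and AT5G61470 were the most like NADP-MDH, both at 0.96, with changes of 1.30 ± 0.18 and 1.18 ± 0.25 (SE). AT3G12930 and AT2G40980 ran with NTRC at 0.92 and 0.91. SBPASE had the loosest partners over the 12 arrays, AT2G41950 at 0.75 and AT4G39690 at 0.74. After group means were removed they stood at 0.76 and 0.82, above GH9B16 at 0.70 and AT2G46910 at 0.58 for PRK. The probe of AT4G39690 lies 3 places from that of SBPASE.

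Of 75 loci listed for the Calvin cycle, the plastid thioredoxin system, other thioredoxin targets and the malate valve, 6 were measured by a probe with 1 gene. These were the 5 genes above and PRXIIE (AT3G52960), a plastid peroxiredoxin that reduces peroxides with electrons from thiols. Of the 25 Calvin cycle loci 2 were measured, 1 of which fell. Of the 33 loci of the thioredoxin system 3 were measured, of which FTRB and NTRC fell and PRXIIE rose, though NTRC did not pass on deposited or place-adjusted values or with consecutive arrays averaged. Together 5 of the 6 measured loci were called, against 54.4% of all probes. PRXIIE had deposited intensities of 1.41, 1.92 and 2.27 (lowest, median and highest) with bromoxynil, against 0.159, 0.334 and 0.374 with water, and rose by 2.46 ± 0.24 (SE) on the log2 scale. The probes within 6 places of it had a median change of 0.55, and after the place adjustment its change was 1.77 ± 0.21 (SE). Of the malate valve 1 of 6 loci was measured, NADP-MDH, and of the other thioredoxin targets 0 of 11.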

How the data were processed

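Total RNA was measured on 12 arrays, 6 of bromoxynil plants and 6 of water plants, grouped by title. The deposited values are linear intensities, relative to the brightest feature of each array, as the values themselves show. Scanning, background subtraction and the combination of spots are not given in the sources used here, so the signal over background is unknown and the number of arrays limits the precision. Before log2, each 0 took the array's smallest value above 0. Array medians of the deposited log2 values spanned 0.56, above the 0.1 set as the limit, so quantile normalisation was used.

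All 3439 probes were fitted with limma 3.58.1 under R 4.3.3, as two-sided tests with lmFit and eBayes and Benjamini-Hochberg adjustment. Intervals of pair differences came from inverting the exact permutation test. Names of probes were taken from GEO's platform annotation, matched by gene identifier to a table of the TAIR10.1 assembly used for names only, and were not checked against probe sequences. Named genes were the 5 members, listed pathway loci measured by a probe with 1 gene and, for each member, the 2 probes most like it. The members and lists were chosen with earlier results of these data known.

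The place adjustment used the lag, in probe numbers, at which rank autocorrelation peaked in the contrast of water arrays 1 and 2 with water arrays 3 and 4. It then subtracted, on each array, the median of probes within 6 places and that of each of 12 columns. The columns were set as the remainder of the place after division by 12, an assumed layout. Other alternatives were the scaling, a pseudocount of 0.00346, the dim filter, the variance model, averaging of consecutive numbers, a replicate block and leaving out each array.

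Titles give array numbers 1 to 6 in both groups. Deviations from the group means correlated between bromoxynil and water arrays of 1 number at 0.323 to 0.418 over all probes. As each value exceeded 0.1, the number was used as a block, but only in the alternatives with a replicate block. The main fits and permutation tests did not pair arrays. The pairing comes from the data, because no label says what a number shares. Plots were made in Python 3.11.15 with matplotlib 3.10.9.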

Additional observations from a re-analysis of the deposited data

Results flagged for a closer look

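Over 32 groups of 6 values (the 5 genes, PRXIIE and the 10 pair differences, in bromoxynil and in water), 0 had 1 array far from the others by Dixon's 95% critical value, where chance gives about 5% of groups if arrays are independent. The rule looks for a single array, so arrays that stand apart together can go unflagged. Examples are water arrays 1 and 2 for NADP-MDH and water arrays 5 and 6 for PRK.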

How the results depend on the processing

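The calls of PRK, NADP-MDH and FTRB held their direction and stayed past the threshold under every alternative run. Some passed narrowly. With place adjustment, averaging and block, the limma adjusted p was 0.0478 for PRK and 0.0204 for FTRB. With consecutive numbers averaged, it was 0.0375 for NADP-MDH. NTRC had a log2 change of -0.015 on deposited values, -0.46 without a call with consecutive numbers averaged, and 0.033 after the place adjustment, also with averaging and block. SBPASE passed at 0.58 on deposited values and at 0.50 after the place adjustment, but not with averaging and block added. SBPASE minus NTRC lost its call with the replicate block (0.61, exact sign-flip adjusted p = 0.104) and after the place adjustment (0.47), and ran from 0.50 to 0.74 with 1 array left out. The replicate block changed no other call of a gene or pair. For pairs, the smallest possible exact sign-flip p is 0.03125. Every pair that kept its call sat at that floor, with an exact sign-flip adjusted p of 0.0391, so the test could not separate them. With averaging, 3 values per group allow no permutation test at 0.05, so pair shifts are values only. NADP-MDH minus NTRC was 1.45 and PRK minus NADP-MDH -2.63 after the place adjustment, and adding averaging and block left both values as they were. With averaging 1230 probes of the table were called, and 948 with place adjustment and block added, against 1872. The cause of these differences was not tested. Signal over background was not analysed here.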
